A study of Drosophila melanogaster with 2 samples.

Results

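The regions described here are the IDR peaks of CG9948 in distal intergenic DNA, taken from ChIP-seq of whole Drosophila melanogaster pupae aged 24 h. IDR (irreproducible discovery rate) is a step that keeps peaks which rank alike between lists. The authors' IDR list derives from both replicates, but not every peak in it was found in both replicate lists. A peak was counted as distal when its summit lay outside every annotated gene and over 5 kb from the nearest transcription start site (TSS) of any gene, coding or noncoding. Of 7637 IDR peaks, 590 met this rule, which is 7.73% (95% Wilson interval 7.15 to 8.35%). The other 7047 IDR peaks served for comparison, and among them 2164 intergenic peaks within 5 kb of a TSS and 1427 peaks in introns over 5 kb from any TSS. The pupae came from a transgenic line with GFP fused to the C terminus of CG9948, and chromatin was precipitated with an antibody against GFP. Both samples carry this transgene and form 1 group of 2 biological replicates, numbered 1 and 3, so no condition was compared with another. The labels name neither the promoter of the transgene nor the state of the endogenous gene, and sex was not collected. Each list covers whole animals, so many cells with weak binding and few cells with strong binding cannot be told apart. The authors' signal of a peak has no stated scale, so different peaks were compared by it only within a list. Values of the same peak in the 2 replicate lists are set side by side as a description. Read depth is unknown, because the lists hold no counts.

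CG9948 is an uncharacterized fly gene. Intergenic DNA far from promoters is where many fly enhancers lie, which are stretches bound by transcription factors that raise transcription of a gene at a distance. Genes for patterning factors and secreted signals are known for long flanking regions with several enhancers each, active in separate tissues or at separate times. Around the start of pupal life the hormone ecdysone drives the loss of larval tissues and the growth of adult ones, through a cascade of induced transcription factors.

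The sequences below reach 50 bases to each side of the summits of 6 of the strongest distal peaks and of 2 of the weakest, with the left flank, a window of the same length centred 200 bp away, of 2 of the strong ones. They are shown because the summits of distal peaks were richer in A and T than the DNA beside them, and capitals mark each run of at least 6 bases made of A and T alone. All are on the + strand of the RefSeq release 6 genome, which has dm6 coordinates, and no base lies in a gene.
Summit between CG43336 and pxb, chr3R:15651929-15652029: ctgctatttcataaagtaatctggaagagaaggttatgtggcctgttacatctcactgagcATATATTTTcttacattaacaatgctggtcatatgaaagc
Summit between CG18404 and heca, chr3R:30261969-30262069: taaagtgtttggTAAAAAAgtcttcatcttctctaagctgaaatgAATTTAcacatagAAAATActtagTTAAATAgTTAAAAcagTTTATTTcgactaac
Summit between Qsox2 and Eip93F, chr3R:21937258-21937358: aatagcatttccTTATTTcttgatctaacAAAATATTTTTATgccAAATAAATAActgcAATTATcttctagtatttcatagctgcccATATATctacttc
Left flank of the same peak, chr3R:21937058-21937158: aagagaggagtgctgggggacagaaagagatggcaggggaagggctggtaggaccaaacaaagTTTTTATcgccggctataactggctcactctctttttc
Summit between NijA and CG43245, chr3L:10757745-10757845: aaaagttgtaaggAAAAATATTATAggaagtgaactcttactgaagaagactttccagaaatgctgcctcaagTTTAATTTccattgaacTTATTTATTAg
Summit between hid and CG7320, chr3L:18190625-18190725: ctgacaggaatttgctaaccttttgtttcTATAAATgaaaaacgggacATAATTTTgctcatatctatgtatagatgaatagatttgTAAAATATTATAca
Summit between Osi21 and CG14926, chr2L:11324070-11324170: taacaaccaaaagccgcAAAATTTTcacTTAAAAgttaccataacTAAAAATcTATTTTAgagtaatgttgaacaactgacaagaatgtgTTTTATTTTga
Left flank of the same peak, chr2L:11323870-11323970: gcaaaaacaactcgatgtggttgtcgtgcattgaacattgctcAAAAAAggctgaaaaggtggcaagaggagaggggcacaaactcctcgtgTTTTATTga
Weak summit between trv and CG34354, chr3R:28117652-28117752: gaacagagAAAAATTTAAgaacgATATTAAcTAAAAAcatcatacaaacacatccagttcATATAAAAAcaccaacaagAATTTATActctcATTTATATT
Weak summit between CG6163 and CG11726, chr3L:11373097-11373197: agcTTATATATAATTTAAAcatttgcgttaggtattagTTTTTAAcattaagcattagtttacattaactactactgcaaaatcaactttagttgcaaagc
Runs in capitals took up 41 bases at the Eip93F summit and 7 in its flank, and 37 at the Osi21 summit and 13 in its flank. The pxb summit, the strongest of those shown, held 1 run of 9 bases. Whether signal goes with the number of runs was not tested. Of the weak summits, that beside trv held 6 runs, and the weakest of all distal peaks, 8.26 kb from CG6163, held 2.

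Distal peaks were sparser per base than other IDR peaks. The DNA that the rule admits came to 20.1 of the 134 Mb of the 6 assembled chromosome arms, and held 29.4 distal peaks per Mb (27.2 to 31.7, from the Wilson interval of the share). The other IDR peaks numbered 61.9 per Mb of the remaining DNA. Of the admitted DNA, 48.2% lies on chromosome 4, where no distal peak was found, or on the centromeric side of the last distal peak of its arm. These empty ends are defined by where the peaks themselves lie, so densities without them are higher by construction. Without them and chromosome 4, 10.4 Mb held 56.7 distal peaks per Mb, against 68.7 other IDR peaks per Mb of other DNA and 113 per Mb in intergenic DNA within 5 kb of a TSS. The empty ends were rich in repeats: between 36.3% and 55.6% of their admitted bases were soft-masked, depending on the arm, against 19.0% to 26.0% of the admitted bases left. Other IDR peaks in these ends numbered 132 in all. The part of repeats in the lack of distal peaks there was not tested.

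How density changed with distance depended on the empty ends. Over all intergenic DNA, IDR peaks numbered 255 per Mb under 0.5 kb from a TSS, 70.4 from 0.5 to 2 kb and 57.8 from 2 to 5 kb, and distal peaks 50.2 per Mb from 5 to 10 kb, 36.0 from 10 to 20 kb, 16.4 from 20 to 40 kb and 0.400 beyond. Most of the DNA beyond 40 kb, 5.01 Mb in all, lies in the empty ends. The values without them fall less with distance, but the ends were set by where the distal peaks lie, so this rests in part on that choice. Without the empty ends, intergenic IDR peaks numbered 265 per Mb under 0.5 kb from a TSS, 76.3 per Mb from 0.5 to 2 kb and 64.3 per Mb from 2 to 5 kb. Distal peaks numbered 59.9 per Mb from 5 to 10 kb (360 peaks), 54.1 from 10 to 20 kb (180 peaks) and 50.8 from 20 to 40 kb (48 peaks). Beyond 40 kb, 2 peaks in 0.130 Mb gave 15.4 per Mb, too few to set against the others. The median distance to the nearest TSS was 8.75 kb and the longest 43.2 kb. The nearest TSS belonged to a protein-coding gene for 387 distal peaks and to a noncoding gene for 203. Of the distal peaks, 48.0% lay upstream of that TSS (44.0 to 52.0%), close to the 51.8% of admitted bases outside the empty ends that do.

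**Figure D1:**
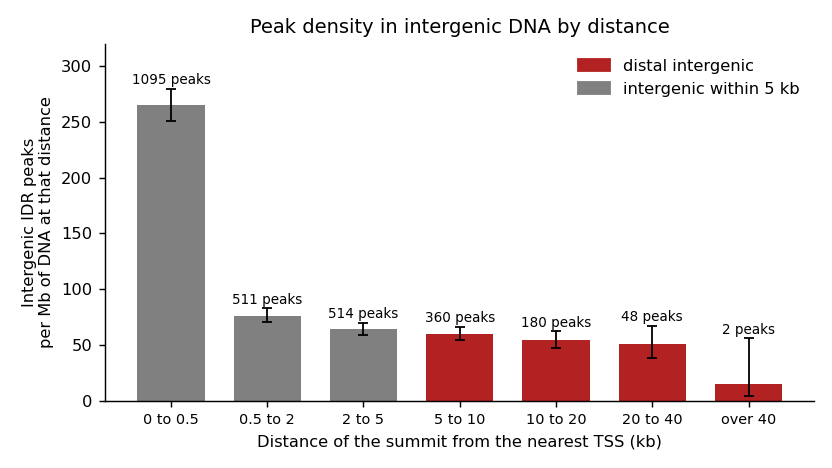
Intergenic IDR peaks per Mb of intergenic DNA (vertical axis) by distance of the summit from the nearest TSS (horizontal axis, kb), without the empty ends and chromosome 4. Red bars are distal peaks and grey bars intergenic peaks within 5 kb, error bars are from 95% Wilson intervals, and numbers above the bars are peaks; density is 265 per Mb under 0.5 kb and between 50.8 and 76.3 per Mb in each bin from 0.5 to 40 kb, while with the empty ends kept it falls to 16.4 per Mb from 20 to 40 kb.

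The chromosome arms differed. Arm 3L held 216 distal peaks, 3R 127, 2L 122, 2R 78, the X 47 and chromosome 4 none of its 13 IDR peaks. The X held 7.97% of distal peaks (6.04 to 10.4%) and 20.2% of the other IDR peaks (19.3 to 21.2%), a difference of -12.3 percentage points (95% Newcombe interval -14.4 to -9.64). The same held in each replicate list cut to its strongest 7637 peaks. There the X held 8.21% of distal and 20.9% of other peaks in replicate 1, and 7.41% of distal and 19.5% of other peaks in replicate 3. Admitted DNA made up 12.4% of the X and 15.6% of the large autosome arms together, and it held 16.1 distal peaks per Mb on the X and 31.8 on those arms. Other IDR peaks per Mb of the remaining DNA were not fewer on the X: 69.2, against 61.0 on the autosome arms. Without its empty end the X still had the lowest density of distal peaks, 24.7 per Mb, and 3L the highest, 87.3 per Mb, with 49.6 to 62.0 on the others. Median signal was 289.6 for the 47 distal peaks on the X and 304 for those on the autosome arms. The strongest on the X, at chrX:18924708-18925085 between CG7378 and CG43759, had 609.7 in the IDR list, 227.9 in replicate 1 and 390.2 in replicate 3, and ranked 87 among distal peaks.

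The strongest distal peaks lay beside genes of several kinds. The 25 strongest fell between 18 pairs of protein-coding genes, with 11 on 3L, 6 on 3R, 4 on 2L, 4 on 2R and none on the X. All 25 were found in both replicate lists, as were 569 of all 590 distal peaks. Signals of the 25 ran from 291.9 to 1042 in replicate 1 and from 739.4 to 2183 in replicate 3. Replicate 3 was the higher in each. Replicate 3 was also the higher at 560 of the 569 distal peaks found in both lists, with a median log2 ratio of replicate 3 to replicate 1 of 1.05, and at other IDR peaks the median was 1.08. A higher signal in replicate 3 was thus usual for distal and for other peaks. The scale and read depth of both lists are unknown, and their part in this ratio was not tested.

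The strongest distal peaks included one in a gap beside Su(z)2 and one in a gap beside Psc, though for both another gene has the nearest TSS. The strongest of all, at chr2R:13035038-13035536, had a signal of 3215 in the IDR list, 1042 in replicate 1 and 2183 in replicate 3. It lies between Su(z)2, which codes for a Polycomb group protein, and CG13323, 11.9 kb from the TSS of CG13323, and ranked 21 among all IDR peaks. It was the only distal one of the 100 strongest IDR peaks. The seventh of the distal peaks, at chr2R:12959098-12959640, had 1645 in the IDR list, 590.3 in replicate 1 and 1057 in replicate 3, and lies between CG13321, whose TSS is 5.90 kb away, and Psc, the paralog of Su(z)2 and a subunit of Polycomb repressive complex 1. The 4 distal peaks in the gap right of Su(z)2 ran from 153.8 to 3215 with a median of 178.5, so 1 peak stood far above its neighbours there.

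Other strong peaks lay beside an ecdysone response gene and a cell death gene. The peak at chr3R:21937080-21937529, in the gap between Qsox2 and Eip93F, had 1842 in the IDR list, 601.9 in replicate 1 and 1241 in replicate 3. Eip93F, a transcription factor induced by ecdysone that acts in the change from larval to adult tissue, has its TSS 11.8 kb away. A second peak of the same gap, at chr3R:21941331-21941742 and 7.56 kb from that TSS, had 1428 in the IDR list, 522.6 in replicate 1 and 905.4 in replicate 3. The peak at chr3L:18190469-18190867 had 1647 in the IDR list, 569.8 in replicate 1 and 1091 in replicate 3. It lies 5.03 kb from the TSS of hid, which promotes apoptosis by binding the caspase inhibitor Diap1, and only just meets the distance rule.

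Several strong peaks flanked genes of signalling pathways. The peak at chr2L:7358029-7358387 had 1294 in the IDR list, 420.1 in replicate 1 and 866.5 in replicate 3, and lies between Wnt6 and Wnt10, which code for secreted Wnt ligands. The gap between CG8635 and ptc, the Hedgehog receptor, held a peak at chr2R:8639304-8639775. It had 1218 in the IDR list, 443.5 in replicate 1 and 783.0 in replicate 3, though CG8635 has the nearest TSS, 7.53 kb away. The gap beside dally, a cell surface proteoglycan that binds Dpp and Wingless, held one at chr3L:8821662-8822052 with 1113 in the IDR list, 317.9 in replicate 1 and 837.1 in replicate 3. A peak of 1115 lay in the gap beside drl, a receptor of the Ryk family that binds Wnt5, though a noncoding gene has the nearest TSS, 9.12 kb away. A peak of 1321 lay in the gap between Best4 and Tollo, a Toll family receptor, 25.1 kb from the TSS of Tollo.

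Transcription factor genes and others made up the rest. The peak at chr2R:8321894-8322329 had 1299 in the IDR list, 453.2 in replicate 1 and 850.0 in replicate 3, 5.38 kb from the TSS of pdm3, a POU homeodomain factor. The peak at chr3L:8668108-8668502 had 1164 in the IDR list, 291.9 in replicate 1 and 881.4 in replicate 3, 7.46 kb from hry, known as hairy, a bHLH repressor of segmentation and bristle patterning. The second strongest distal peak, at chr3R:15651760-15652172, had 1916 in the IDR list, 660.7 in replicate 1 and 1245 in replicate 3, 14.2 kb upstream of pxb. The gap between CG18404 and heca, known as headcase, held 3 of the 25, with IDR signals of 1872, 1451 and 1429. The gap between NijA and CG43245 held 5 of them, from 1162 to 1653, and another gap on 3L, between Aps and CG14147, held 1, of 1395. The remaining ones were a peak of 1472 in the gap between Osi21 and CG14926, one of 1234 between CG6163 and CG11726, and one of 1229 between spel1 and ppk, a sodium channel subunit.

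Distal peaks came in groups. The 590 peaks lay in 245 of the 1422 gaps between annotated genes that hold admitted DNA. A single distal peak was found in 121 of these gaps, and 29 gaps with at least 5 held 210 peaks, 35.6% of all. Another distal summit lay within 5 kb of 67.6% of distal peaks (63.7 to 71.3%), so many members share a region and are not independent. Some members are separate summits of 1 called interval and carry the same replicate signals. With 1 peak kept per group of overlapping peaks, 581 distal peaks remained. Counting every IDR summit, 76.1% of distal peaks (72.5 to 79.4%) and 71.4% of the other IDR peaks (70.3 to 72.4%) had a neighbour within 5 kb, a difference of 4.72 points (0.973 to 8.16). Both peaks of a pair count as having a neighbour, so these intervals are too narrow. Gaps with a distal peak were longer, with a median of 19.0 kb, against 11.4 kb for the 978 gaps without one that lie outside the empty ends. A longer gap tends to hold more admitted DNA, so this would arise at an even density of peaks too. A long gap did not always hold a peak: of 128 gaps with at least 20 kb of admitted DNA outside the empty ends, 54 held a distal peak.

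The fullest gap held 21 distal peaks over 57.8 kb of a long gap on 3L, between NijA, a membrane protein of the Ninjurin family, and CG43245. All 21 were found in both replicate lists, with signals from 27.68 to 511.5 in replicate 1 and from 108.2 to 1145 in replicate 3. Signal was uneven along the gap: the 8 peaks in the first 35 kb stayed between 162.4 and 465.8, and the 7 peaks over 800 lay between 42.04 and 63.48 kb from its left end. The gap between Aps and CG14147, also on 3L, held 12, from 154.3 to 1395, and that between Qsox2 and Eip93F 10, from 179.4 to 1842. The gap between Tollo and Best4 held 9, from 155.1 to 1321, and that between CG43402 and CG31928 on 2L another 9, from 161.4 to 699.2. Every distal peak in these 5 gaps was found in both replicate lists, as were 569 of all 590 distal peaks, or 96.4%. The strongest distal peak of a gap had 4.33 to 10.7 times the signal of its weakest, so strong and weak peaks stood side by side.

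**Figure D2:**
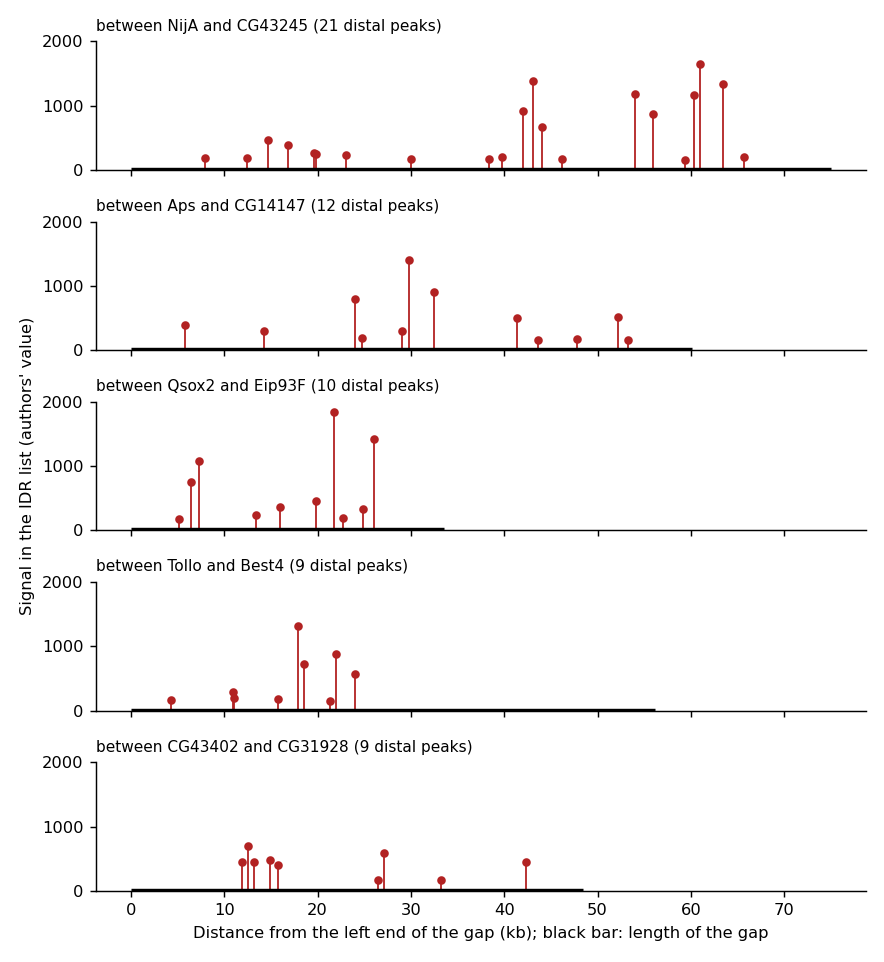
Signal in the IDR list (vertical axes, authors' value) of the distal peaks in the 5 gaps that hold most, by distance from the left end of the gap (horizontal axis, kb). Each stem is 1 distal peak and the black bar is the length of the gap; in the top panel the peaks over 800 lie between 42.04 and 63.48 kb.

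The members at the edges of the rule ranged widely in signal. The peaks farthest from any TSS lay on 2L between CG10651 and CG17571. One at chr2L:20204683-20204957, 43.2 kb from the nearest TSS, had 539.7 in the IDR list, 159.6 in replicate 1 and 375.3 in replicate 3, and one at chr2L:20175133-20175522, 40.4 kb away, had 197.7, 61.63 and 140.7 in the same order. The next were a peak of 473.7 at 39.3 kb from CG43335 and a pair of 176.1 and 411.8 between bab1 and bab2, BTB transcription factors of limb and abdominal patterning, at 37.8 and 37.7 kb. The 5 members just inside the limit lay between 5001 and 5065 bp from a TSS and had signals from 158.6 to 1647, the highest being the peak beside hid. The 5 intergenic peaks just outside lay between 4957 and 4996 bp and had signals from 217.4 to 871.2. The weakest distal peak had 150.0, next to the lowest signal of the IDR list, 149.8.

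Signal of distal peaks was near that of the other IDR peaks except at the top. Distal peaks had a median of 302 and the other IDR peaks a median of 312, and 48.3% of distal peaks (44.3 to 52.3%) lay above 312, so no difference in the middle of the distribution was detectable. Distal peaks made up 5.43% of the strongest 1528 IDR peaks (4.40 to 6.68%). In the next 4 groups of equal size, from strong to weak, they made up 9.10%, 8.12%, 7.27% and 8.70%, against 7.73% over the whole list. Among the strongest 500 they were 23, or 4.60% (3.08 to 6.81%). Distal peaks had a median width of 304 bp and the other IDR peaks 323 bp. In the pooled list of 30000 peaks, 8.48% were distal (8.17 to 8.80%), 7.66% among ranks 1 to 5000 and 8.92% among ranks 25001 to 30000. Of the distal pooled peaks 23.9% overlapped an IDR peak (22.2 to 25.6%), and of the other pooled peaks 26.5% (25.9 to 27.0%).

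Distal peaks were found in both replicate lists more often than other IDR peaks. An IDR peak was counted as found when a peak of the replicate's list covered at least 50% of the shorter of both, and 91.1% of all IDR peaks were found in both lists. Of distal peaks 569 of 590 were, 96.4% (94.6 to 97.7%), and of the other IDR peaks 90.7% (90.0 to 91.3%), a difference of 5.78 points (3.84 to 7.19). Among IDR peaks above the list's median signal the difference was 3.44 points (1.73 to 4.18). Intronic peaks over 5 kb from a TSS were close to distal peaks, with 94.7% in both lists (93.5 to 95.8%), and the 2 intervals overlap. Intergenic peaks within 5 kb of a TSS had 89.0% (87.6 to 90.3%). Peaks found in the replicate 3 list only were 1 distal peak, or 0.169% (0.0299 to 0.954%), and 447 other IDR peaks, or 6.34% (5.80 to 6.94%). That difference was -6.17 points (-6.78 to -5.22), and -2.55 points (-3.12 to -1.14) among IDR peaks above the median signal. That distal peak lies between CG7320 and CheA75a on 3L and had 162.5 in the IDR list and 199.9 in replicate 3, and it is named because it is the only one. Peaks in introns far from a TSS lay between, with 2.45% (1.77 to 3.39%) found in replicate 3 only, and intergenic peaks near a TSS had 7.39% (6.37 to 8.57%). Peaks in the replicate 1 list only were 3.39% of distal and 2.94% of other IDR peaks, a difference of 0.452 points (-0.805 to 2.28). These 20 distal peaks were mostly weak, with a median of 189 in the IDR list and a range of 153 to 523. The replicate lists differ in how many distal peaks they hold to be matched. Of 30000 peaks each, 3430 were distal in replicate 1, or 11.4%, and 2206 in replicate 3, or 7.35%. The part of this in the shares above was not tested.

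The replicates ranked distal peaks alike. Over the 569 found in both lists, signal in replicate 1 and replicate 3 had a Spearman correlation of 0.848 across peaks. Over 6389 other IDR peaks it was 0.825. This is a description, since an IDR step may itself select peaks that rank alike in the replicates. Distal peaks had 26.6 to 1042 in replicate 1 with a median of 99.8, and 73.3 to 2183 in replicate 3 with a median of 205. The most uneven were a peak between Awh and Fie on 3L, with 26.95 in replicate 1 and 289.3 in replicate 3, and a peak between hh and unk on 3R, with 134.7 in replicate 1 and 85.72 in replicate 3. These were picked after the values were seen.

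**Figure D3:**
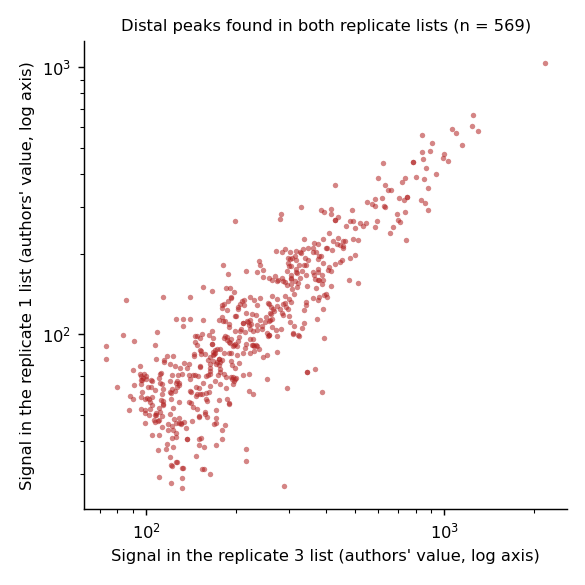
Signal of the 569 distal peaks found in both replicate lists, in the replicate 3 list (horizontal axis) and in the replicate 1 list (vertical axis), both log axes of the authors' value. Each point is 1 peak; the points form 1 band, widest at low signal, and the highest point is the peak beside Su(z)2 with 1042 in replicate 1 and 2183 in replicate 3.

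Patterning and ligand genes bordered more distal peaks than their share of the admitted DNA. A gap counts for a list when the nearest protein-coding gene on either side belongs to it, and the share of admitted bases outside the empty ends in such gaps is the background. Genes of the list of homeodomain and other patterning transcription factors, which set the identity of body regions and cells, bordered 118 of 590 distal peaks, 20.0% (17.0 to 23.4%), against 12.7% of bases. Of 1422 gaps with admitted DNA, 1221 of them outside the empty ends, 245 held a distal peak. Of the 108 gaps bordered by a listed gene, 51 did, and gaps were not matched by length. The strongest was a peak of 693.4 beside vvl, a POU factor, with 11 distal peaks in bordering gaps, then one of 670.5 beside tll, an orphan nuclear receptor of the head and brain, and one of 653.6 beside drm, a zinc finger factor. The largest number was 12 peaks beside mid, a T-box factor, the strongest of 537.3, and ems, a homeodomain factor of the head, bordered 10, the strongest of 552.3. The median signal of these 118 was 306 and the highest 693.4, so none was among the 25 strongest. The list does not hold pdm3, which is named above beside a peak of 1299.

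Ligand genes bordered 31 distal peaks, 5.25% (3.73 to 7.36%), against 1.58% of bases, at 189 per Mb. Besides the peak between Wnt6 and Wnt10, the strongest were one of 1068 beside hh, the Hedgehog ligand, and one of 1056 beside Ser, a Notch ligand, with 4 distal peaks each in bordering gaps. The 2 gaps beside wg, the founding Wnt gene, held 11 peaks, the strongest of 512.2, and dpp, a BMP ligand, bordered 4, the strongest of 842.6. Ecdysone response genes bordered 12, 2.03% (1.17 to 3.52%), against 0.510% of bases. All 12 lay beside only 2 listed genes: Eip93F with 10 peaks, all in 1 gap, and Eip75B, a nuclear receptor, with 2. The stronger of those beside Eip75B had 394.2. Proneural and other bHLH genes bordered 13, 2.20% (1.29 to 3.73%), against 1.14% of bases, with 11 beside hry and 2 beside esg, a zinc finger factor that the list also holds, the stronger of 186.4.

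The remaining lists bordered fewer peaks than their share of bases, or about as many. Chemosensory receptor genes bordered 12 distal peaks, 2.03% (1.17 to 3.52%), against 4.26% of bases, with a median signal of 209 and the strongest, 986.8, in the gap between Gr93a and Gr93b. Axon guidance and adhesion genes bordered 7, 1.19% (0.576 to 2.43%), against 2.67% of bases, the strongest of 672.3 beside trn and the next of 471.5 beside hbs and 333.8 beside NetA. Ion channel and neurotransmitter receptor genes bordered none, which allows a share of up to 0.508% (3 counts of 590; the Wilson upper limit is 0.647%), against 1.33% of bases in 20 gaps. The list does not hold ppk, which borders a strong peak named above. Cytosolic ribosomal protein genes, with 0.601% of bases, bordered none either, and cuticular protein genes bordered 2, 0.339% (0.0930 to 1.23%), against 0.336% of bases. Peaks of 1 gap are counted 1 by 1, so the intervals are too narrow, most of all for the lists where 1 gap holds most peaks.

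**Figure D4:**
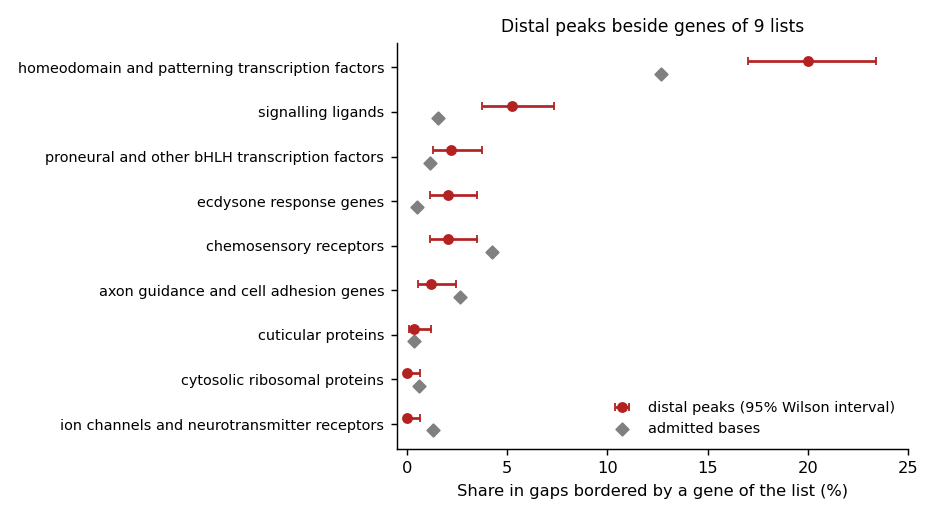
Share of distal peaks (red points with 95% Wilson intervals, n = 590) and share of admitted bases outside the empty ends (grey diamonds) in gaps bordered by a gene of each of 9 lists (horizontal axis, %). In percentage points, peaks exceed bases most for patterning factors, with 20.0% of peaks and 12.7% of bases, and for signalling ligands, with 5.25% and 1.58%.

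Distal summits stood on A + T rich DNA with flanks poorer in A + T. Within 50 bp of the summit, distal peaks averaged 71.4% A + T, and in windows of the same length centred 200 bp to either side 52.5%, a difference of 18.9 points ± 0.368 (SE over 590 peaks). The summit was the richer in 574 of 590. Admitted DNA outside the empty ends had 58.8% A + T, so the summits lay above it and the flanks below. The other IDR peaks averaged 69.7% at the summit and 55.2% in the flanks, a difference of 14.5 points ± 0.124 (SE over 7047 peaks). Distal peaks exceeded them by 4.41 points in this contrast (95% interval 3.65 to 5.17), and their summits differed by 1.74 points (1.19 to 2.30) and their flanks by -2.67 points (-3.19 to -2.14). Against intergenic peaks near a TSS the contrast was larger by 3.86 points (3.01 to 4.71), though the summits themselves differed by 0.408 points (-0.213 to 1.03). Against intronic peaks far from a TSS it was larger by 2.82 points (1.95 to 3.69). Only 3 distal summits had under 50% A + T, and they are named because they are the only ones. They lie between CG8635 and ptc with 46.5%, between plh and corto with 48.5% and between Cyp6t1 and GCS2alpha with 41.6%. The first is a second summit of the interval that holds the peak of 1218, whose own summit, 0.213 kb away, had 71.3%.

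**Figure D5:**
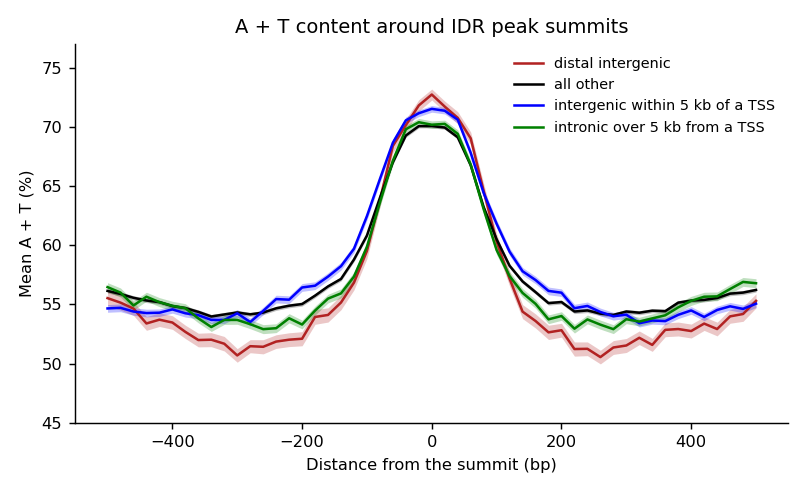
Mean A + T content (vertical axis, %; axis does not start at 0) in 20 bp windows by distance from the summit (horizontal axis, bp) for distal peaks (red) and the other classes, with bands of 1 SE over peaks. The red line reaches 72.73% at the summit and 50.55% at 260 bp to the right, a higher top and a lower floor than the other lines.

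Runs of A and T separated summits from flanks in the same way. At least 1 run of 6 or more bases was present in 98.1% of distal summit windows (96.7 to 99.0%), 68.6% of their flank windows and 83.4% of 101857 windows of equal length tiling the admitted DNA outside the empty ends. Distal summits held 3.70 runs on average and their flanks 1.33. The other IDR peaks held 3.48 at the summit and 1.57 in the flanks. The longest run in a distal summit window had a median of 11.0 bases and reached 39. The printed summits beside Eip93F and Osi21 show this pattern.

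Of 23 motifs searched on both strands, 1 had a share at distal summits whose 95% interval of the difference from other IDR peaks excluded 0. It was CGATA, in 7.97% of distal summits (6.04 to 10.4%) and 10.7% of other IDR summits, a difference of -2.69 points (-4.75 to -0.127), and its share in distal flanks was also 7.97%. With 23 motifs, an interval this close to 0 is weak. Against intronic peaks far from a TSS, the CGATA difference was -1.49 points (-4.01 to 1.35). There 2 motifs had intervals that excluded 0, both narrowly. They were TAATTA, with a difference of 2.97 points (0.0193 to 6.23), and AATTAAT, with 2.61 points (0.0143 to 5.55). Several motifs rich in A and T were more frequent at summits than in flanks. TATATA was present in 15.6% of distal summits and 3.90% of flank windows, and in 5.80% of the tiles. AATTAAT had 9.83% at summits and 3.14% in flanks, and TAATTA, a core bound by many homeodomain factors, 12.7% and 4.49%. AGATAA, a core bound by GATA factors, had 9.15% at summits and 4.15% in flanks. AAAAAA had 31.5% at summits and 15.2% in flanks.

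Several words with G and C were scarcer at summits, though AGGTCA, a nuclear receptor core, had 2.54% at summits and 1.53% in flanks. CAGCTG, an E-box, was present in 0.847% of distal summits and 5.34% of flank windows. CACACA had 4.41% at summits and 11.3% in flanks, and GAGAG, the core bound by GAGA factor, 6.27% and 15.8%. The tiles lay between, with 3.81% for CAGCTG, 9.48% for CACACA and 10.6% for GAGAG. The part of the higher A + T content of summits in these differences was not tested. CACTG had 11.4% at distal summits (9.04 to 14.2%), 22.1% in flanks, 15.4% in the tiles and 13.8% at other IDR summits, a difference from the last of -2.48 points (-4.94 to 0.442). GGCGGGA was present in none of the 590 distal summits, which allows a share of up to 0.508% by the same 3 counts (Wilson upper limit 0.647%), and in 0.184% of other IDR summits. The motifs of A and T alone overlap in letters with each other and with the runs of A and T, so their shares are not separate facts, and a match names no bound factor.

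Annotated transposable elements held almost no distal summits. They held 2 of 590, 0.339% (0.0930 to 1.23%), although 14.2% of admitted bases, and 8.94% of those outside the empty ends, lie in them. The other IDR peaks had 0.255% there, a difference of 0.0836 points (-0.204 to 0.977). How reads in repeated DNA were aligned is not given, and whether peaks could be called there was not tested. The 2 distal peaks in such elements were the farthest peak of all, 43.2 kb from a TSS on 2L, with 539.7, and a peak of 180.8 between Jhbp1 and CG14662 on 3R. They are named because they are the only ones. Soft-masked bases, which include short and simple repeats, held 28.8% of distal summits (25.3 to 32.6%) and 27.7% of other IDR summits, and made up 31.4% of admitted bases and 21.8% of those outside the empty ends.

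Among distal peaks, those with high signal had the larger A + T contrast. The strongest 197, with signals from 412 to 3215, had an A + T contrast of 21.4 points ± 0.615 (SE), against 17.7 ± 0.629 in the next 197 and 17.5 ± 0.633 in the weakest 196. The summits averaged 72.2%, 71.0% and 71.1% A + T in the same order. AAAAAA was present at 25.4%, 33.0% and 36.2% of the summits of these groups, and CACTG at 7.61%, 13.7% and 12.8%. Both replicate lists held 99.5%, 97.5% and 92.3% of the groups. Median distance to the nearest TSS was 8.46, 8.55 and 9.41 kb. Median peak width was 318, 206 and 390 bp, and the part of width in the A + T contrast was not tested. Across the 590 peaks, signal had a Spearman correlation of 0.22 with the A + T contrast, -0.058 with the distance to the nearest TSS and -0.18 with the distance to the next distal peak, given as descriptions since neighbours share a region.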

How the data were processed

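Anti-GFP ChIP-seq of whole pupae gave 4 deposited peak lists in narrowPeak format on dm6, per the deposited readme texts: 1 per replicate and 1 for the pooled alignments, with 30000 peaks each, and the optimal IDR list. Per those texts each was made against a control, which was not analysed here. The fixed length of the 3 long lists means that their size measures nothing. Aligner, caller and threshold: not given in the sources used here. The deposited signal of a peak is the authors' value on an unstated scale, and the deposited summit offset is the authors' position within the peak. It equals the peak's width in 3 IDR peaks, none of them distal, where the last base was taken. Read depth is unknown, so no depth-based precision could be given.

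Genes came from Ensembl release 115 (18164 genes of every kind, 5809 transposable elements left out) and sequence from RefSeq release 6, on arms 2L, 2R, 3L, 3R, X and 4. A + T and motifs were read within 50 bp of the summit and in windows centred 200 bp away. Shares have 95% Wilson intervals and their differences 95% Newcombe intervals; differences of mean A + T have normal 95% intervals. All cover counting error over peaks only, treat neighbouring peaks as independent and are not adjusted for the number of comparisons. No p-value was computed. Functions were tested on simulated data. For 7 listed gene symbols the current symbol was used.

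Named were the 25 strongest members, the 5 farthest from a TSS, the 5 fullest gaps, the 5 on each side of the limit, the 3 weakest, of which 1 is not reported here, and up to 3 strongest members of each gene list, besides genes named for a count of peaks; sequences are from the strongest members off arm 2R and the weakest. The members, lists and motifs were chosen with earlier results of these data known. Python 3.11.15, NumPy 2.4.6, pandas 2.3.3 and matplotlib 3.10.9 were used.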

Additional observations from a re-analysis of the deposited data

How the results depend on the processing

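Under the alternatives tried, 52 of 66 values of the 11 main results kept their call: differences stayed on the same side of 0 with an interval on the same side, or still included 0, counts stayed within 1.5 times and shares within their interval. No difference whose interval excluded 0 reversed. Their size could change: among peaks above the median signal, the difference for both replicate lists was 3.44 points and that for replicate 3 only -2.55, against 5.78 and -6.17. The transposable element difference, 0.0836 points, was -0.0805 with protein-coding genes only and -0.0733 without replicate 1, and its interval included 0 throughout. The alternatives for the X share and for peaks found in replicate 3 only were chosen after seeing the data, and in each the interval still excluded 0 with the same sign. The number of distal peaks followed its definition: 1109 at a minimum of 2 kb, 230 at 10 kb, 1040 with protein-coding genes only and 285 among IDR peaks above the list's median signal. In the strongest 7637 peaks of 1 replicate's list it was 553 to 658. Density was 17.8 per Mb at 10 kb, 40.0 with protein-coding genes only, and 27.5 to 32.7 without replicate 1 or 3. The share with a distal neighbour was 74.0% with protein-coding genes only and 47.5% within 2 kb. Motifs whose interval excluded 0 numbered 4 at 2 kb, 2 at 10 kb, 2 in windows of 100 bp, and 2 to 3 without replicate 1 or 3, so this count of 1 is not stable; the CGATA interval included 0 among peaks above the median signal, in windows of 25 bp and without replicate 3. The A + T contrast against other IDR peaks ranged from 3.00 to 5.30 points without replicate 1 or 3. Patterning factor genes bordered 3.03 points more peaks than bases when only the gene with the nearest TSS was counted, against 7.30. The excess beside bHLH genes and the deficit beside axon guidance and chemosensory genes had intervals that included 0 at 10 kb, those beside bHLH and axon guidance genes also among peaks above the median signal, and that beside axon guidance genes also with the nearest TSS only. No paired analysis was possible because both replicates form 1 group. Read depth is unknown, and the lists end at 30000 peaks, so peaks weaker than that were not analysed here.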
